A study of Mus musculus with 14 samples.

Results

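The cytosolic HSP70 system is the set of chaperones that bind unfolded proteins in the cytosol, together with the factor that switches their genes on. It was defined here by 10 gene symbols: Hsf1, Hspa1a, Hspa1b, Hspa8, Hspa4l, Hsph1, Dnaja1, Dnajb1, Dnajb4 and Bag3. They were chosen with earlier results of these data known. The platform annotation named a probe set for 9 of the 10 genes, out of 18193 genes with a named probe set in all. No probe set was named for Hsf1, which was not analysed here. The 9 genes had 24 probe sets, all of which passed the filter on low values, and they were among the 12085 genes tested. Each gene was read from its brightest probe set, and the other probe sets served as a check.

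RNA was measured on 14 arrays of mouse liver, 1 array per sample, from WT animals and from animals labelled lsPERK, described by the submitters as a knock-out. Eif2ak3 encodes PERK, a kinase in the endoplasmic reticulum (ER) membrane that lowers protein synthesis when unfolded proteins accumulate in the ER. There were 3 WT and 3 lsPERK control livers, given 0.3% DMSO, and 4 WT and 4 lsPERK livers taken 6 h after 1 mg/kg tunicamycin. Tunicamycin blocks N-linked glycosylation and so burdens protein folding in the ER. The labels give no strain, age, sex, litter or slide, and no promoter or Cre line behind lsPERK. No time after dosing is recorded for the control livers, so whether they were matched in time is not known. Nor do they say whether replicates were separate animals. If they were not, the p-values reflect technical spread only.

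HSP70 proteins hold exposed hydrophobic stretches of client proteins and release them in a cycle driven by ATP. J-domain proteins such as Dnaja1, Dnajb1 and Dnajb4 deliver clients and stimulate ATP hydrolysis, while nucleotide exchange factors such as Hsph1, Hspa4l and Bag3 reopen the cycle. HSF1 is the transcription factor of the heat shock response. It is held back by these chaperones in unstressed cells and, once free, binds heat shock elements made of repeated inverted GAA units and raises their genes. The unfolded protein response of the ER, by contrast, acts through PERK, IRE1 and ATF6 and is best known for ER chaperones such as Hspa5 (BiP).

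Sequences before the transcription starts are shown because 6 of the 8 genes with a listed promoter held a pair of heat shock units within the window searched, from 250 bases before to 50 after a start, and because Hspa1a and Hspa1b, which moved together, proved nearly identical there. RefSeq (GRCm38.p6) listed 13 promoters for these 8 genes and none for Hspa8. The 250 bases before the start are given 5′ to 3′ on the gene's strand, with the letters TTCNNGAA or GAANNTTC in capitals. The segments lie at chr17:34972157-34972406 (minus strand) for Hspa1a, chr17:34959239-34959488 (minus) for Hspa1b, chr5:149636337-149636586 (minus) for the first of the Hsph1 promoters, chr4:40722218-40722467 (plus) for the first of the Dnaja1 promoters and chr3:152193846-152194095 (minus) for the second of the Dnajb4 promoters.
Hspa1a: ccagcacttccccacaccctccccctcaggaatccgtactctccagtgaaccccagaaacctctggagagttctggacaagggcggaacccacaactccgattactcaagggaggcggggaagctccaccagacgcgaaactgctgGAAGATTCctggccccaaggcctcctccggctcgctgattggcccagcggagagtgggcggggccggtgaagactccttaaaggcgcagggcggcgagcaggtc
Hspa1b: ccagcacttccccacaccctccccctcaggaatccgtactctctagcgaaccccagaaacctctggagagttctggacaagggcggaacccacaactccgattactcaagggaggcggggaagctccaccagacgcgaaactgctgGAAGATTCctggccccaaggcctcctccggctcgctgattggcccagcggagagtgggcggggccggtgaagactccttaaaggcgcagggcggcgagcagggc
Hsph1: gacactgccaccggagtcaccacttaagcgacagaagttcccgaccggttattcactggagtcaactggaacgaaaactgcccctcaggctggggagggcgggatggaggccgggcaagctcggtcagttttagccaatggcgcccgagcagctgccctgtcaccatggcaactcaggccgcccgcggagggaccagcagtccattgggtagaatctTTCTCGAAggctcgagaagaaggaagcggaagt
Dnaja1: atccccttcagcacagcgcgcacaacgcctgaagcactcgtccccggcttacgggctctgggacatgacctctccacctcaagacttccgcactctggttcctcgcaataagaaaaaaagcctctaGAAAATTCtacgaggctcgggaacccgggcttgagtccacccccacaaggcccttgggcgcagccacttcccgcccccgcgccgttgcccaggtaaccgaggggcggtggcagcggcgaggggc
Dnajb4: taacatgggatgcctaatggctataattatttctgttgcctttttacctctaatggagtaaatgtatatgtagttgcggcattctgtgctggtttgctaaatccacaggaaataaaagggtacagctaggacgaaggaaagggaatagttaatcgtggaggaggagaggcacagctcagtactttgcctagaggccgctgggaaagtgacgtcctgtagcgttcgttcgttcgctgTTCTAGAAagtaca

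The match GAAGATTC began 104 bases before the start in both Hspa1a and Hspa1b. Counted from 1 at the first printed base, Hspa1a differed from Hspa1b by T44C, C47T and G249T, so 98.8% of the 250 bases were the same. TTCTCGAA began 33 bases before the start of the printed Hsph1 promoter, GAAAATTC 124 bases before that of Dnaja1, and TTCTAGAA 14 bases before that of Dnajb4. The listed promoters of Dnaja1 and Dnajb4 that are not printed held no pair, so their place in the gene count rests on the printed ones. The Hsph1 promoter that is not printed did hold the pair. In Bag3 the single match, GAAGTTTC, began at base 43 after the start. No pair was found in the windows of Hspa4l or Dnajb1. A pair followed at the same spacing by one more unit, which contains the shorter pair, was found in Hsph1 alone, as TTCTGGAAAGTTC beginning at base 37 after the start of its printed promoter. Over all 27025 genes with a listed promoter, searched on both strands with the same window, 17% held the pair in a promoter and 0.662% the longer row. Counted over the 32851 promoters of these genes, the shares were 15.1% and 0.603%. The ER stress element, found in 0.137% of genes (0.119% of promoters), and the ATF4 site TGATGNAA, found in 4.51% (3.97%), had no match in the 8 genes. These are matches of letters, and binding was not measured.

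Quality across the series was as follows. Eif2ak3, the targeted gene, had group means of 338 and 1897 in WT control and tunicamycin livers and 140 and 281 in the lsPERK ones, and under tunicamycin the lsPERK minus WT difference was -2.75 on the log2 scale (SE 0.18, adjusted p = 1.47e-07). Between controls it was -1.27 (SE 0.21), without overlap and with the smallest p of all genes, yet not called (adjusted p = 0.309). Where its probes lie relative to the deleted part is not given in the sources used here. The ER stress genes Ddit3 (CHOP) and Hspa5 rose in WT liver by 6.12 and 1.26 and in lsPERK liver by 2.45 and 1.02 on the log2 scale. All 10 hepatocyte markers passed the filter, and their summed level ran from 163364 to 176698. Arrays fell into a group of 6 with high Xist and a group of 8 with low Xist, spread over all 4 groups, with 1 of 3 WT control, 1 of 4 WT tunicamycin, 2 of 3 lsPERK control and 2 of 4 lsPERK tunicamycin arrays high. In bulk liver, fewer cells of a type and less RNA per cell cannot be told apart.

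After tunicamycin, 8 of the 9 measured genes were higher in lsPERK liver than in WT liver, and Bag3 was lower. All 9 genes rose with tunicamycin in lsPERK liver, by 0.59 to 2.15 on the log2 scale in 8 of them. The rise of Hspa1a, 3.15, was measured from control signals near the filter threshold and is uncertain in size. In WT liver the same treatment lowered Hspa1b and Hspa4l, raised Bag3, and left the other 6 short of the threshold. The lsPERK response exceeded the WT response in 8 genes. Across all genes tested, 15.7% were called in the lsPERK response (8.42% higher and 7.27% lower) and 46.7% in the WT response (20.7% higher and 26% lower). The shares were 19.9% in the difference of responses (10.2% higher and 9.67% lower) and 35.3% between genotypes under tunicamycin (18.5% higher and 16.8% lower). The genes called in a tunicamycin response, or between genotypes under tunicamycin, were the ones whose groups did not overlap in that comparison. Over all genes, groups lay apart without overlap in 21.6% (higher) and 26.6% (lower) for the WT response, 13.4% and 13.8% for the lsPERK response, and 18.6% and 17.7% between genotypes under tunicamycin. The median log2 change of the 9 genes was 1.06 in lsPERK liver against -0.02 over all genes, -0.28 in WT liver against -0.13, and 1.20 for the difference of responses against 0.08. As the genes were chosen with earlier results known, these gaps may partly reflect that choice. Scaling bears on these shares. Without normalization between arrays the median of all genes was 0.30 in the WT response and -0.42 in the difference of responses, and 4 of the 9 genes, Hspa1a, Hspa1b, Hspa4l and Dnajb4, were called higher in that difference. Of all genes tested, 129 of 12169 were called higher in it, against 1232 of 12085 with normalization. Of all WT calls 44.2% were higher, against 83.7% without normalization and 60.7% with median centring. The same shares were 53.7%, 58.3% and 71.7% in the lsPERK response, 51.3%, 6.79% and 35.6% in the difference of responses, and 52.4%, 26.5% and 37.3% between genotypes under tunicamycin. All 9 genes were called higher in the lsPERK response with median centring, and 8 without normalization. Over all genes tested, 1084 of 12085 and 405 of 12169 were called higher in these settings.

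**Figure D1:**
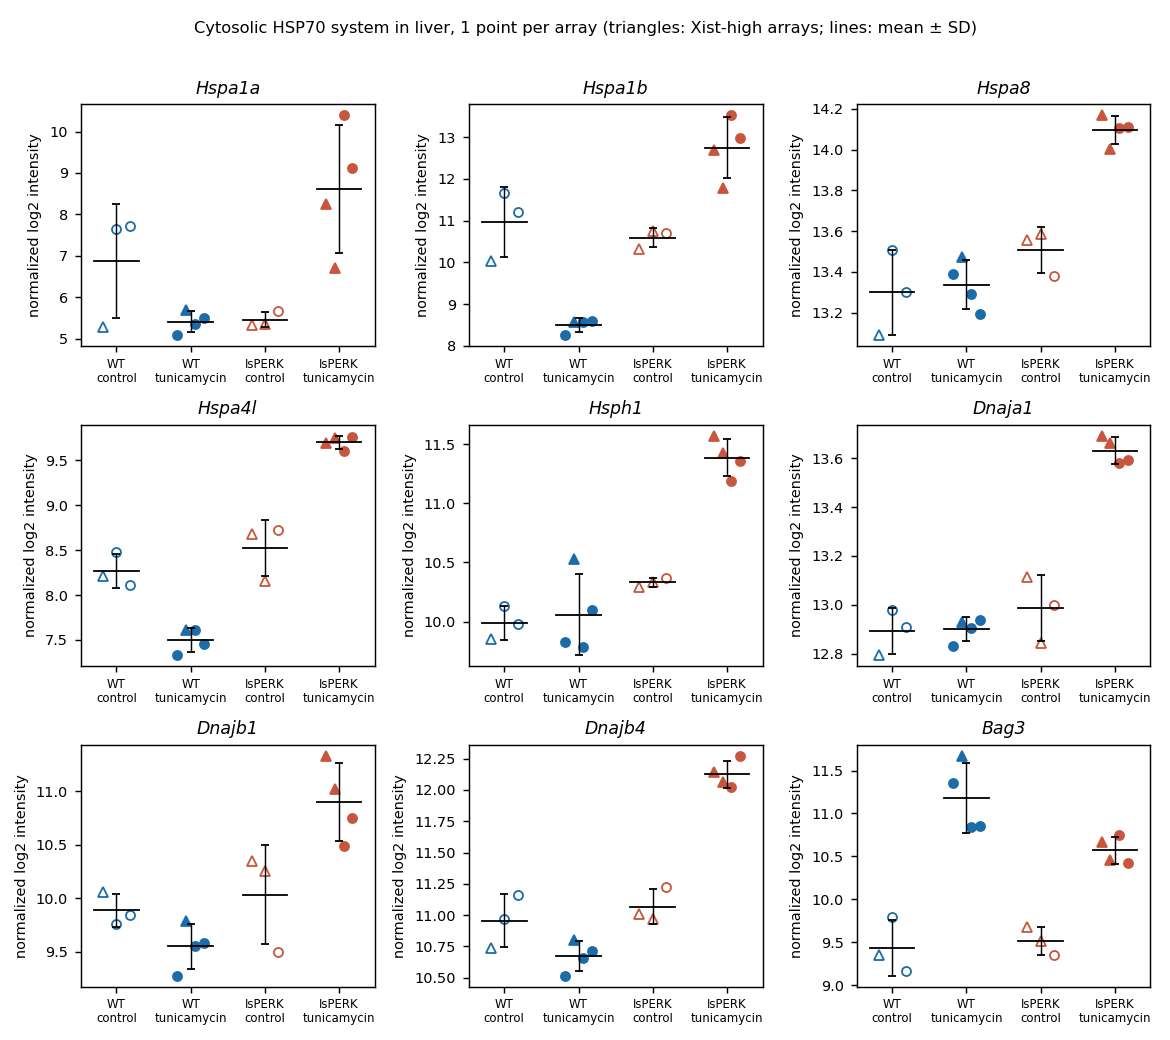
Normalized log2 intensity (vertical axis) of each of the 9 genes on every array, by genotype and treatment (horizontal axis), with the group mean and SD as lines and Xist-high arrays as triangles. In all panels except Bag3 the 4 lsPERK tunicamycin arrays lie above the 4 WT tunicamycin arrays; in the Bag3 panel they lie below them.

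Hspa1a and Hspa1b encode the stress-inducible HSP70, the classical product of the heat shock response. Hspa1b read 1048, 3248 and 2358 in WT control livers, 306, 382, 378 and 389 in WT tunicamycin livers, 1280, 1719 and 1669 in lsPERK control livers, and 6658, 3502, 11747 and 8078 in lsPERK tunicamycin livers (normalized intensity, in replicate order). The treated groups thus lay on opposite sides of the controls, with no overlap in either genotype. Tunicamycin lowered Hspa1b 5.53-fold in WT liver (log2 -2.47, SE 0.37, adjusted p = 0.000107) and raised it 4.45-fold in lsPERK liver (log2 2.15, SE 0.37, adjusted p = 0.00147). The responses differed by 4.62 on the log2 scale (95% confidence interval 3.48 to 5.76, adjusted p = 9.27e-05). After tunicamycin the gene stood 18.9-fold higher in lsPERK than in WT liver (log2 4.24, SE 0.35, adjusted p = 1.2e-06), and 2 genes of 12085 had a larger log2 rise in that comparison. Its order of group means was lsPERK tunicamycin (6858), WT control (2002), lsPERK control (1543) and WT tunicamycin (362), with the control groups overlapping.

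Hspa1a was dim in most livers. It read 38.9, 200 and 210 in WT control livers, 34.1, 52.2, 41.1 and 45.1 in WT tunicamycin livers, 40.5, 41.4 and 51.0 in lsPERK control livers, and 303, 105, 1340 and 558 in lsPERK tunicamycin livers. Several of these arrays lay at or under the filter threshold of 41.5, while every lsPERK tunicamycin array lay above it. No detection calls were used, so the sizes of its log2 differences are uncertain and were not ranked against those of the other genes. The lsPERK rise was 3.15 on the log2 scale (SE 0.70, adjusted p = 0.00757). The WT difference of -1.47 (SE 0.70, adjusted p = 0.104) was not called, and the WT groups overlapped. The responses differed by 4.62 (95% confidence interval 2.49 to 6.76, adjusted p = 0.00544). As Hspa1a and Hspa1b are near-identical copies, how far their probe sets separate the transcripts is uncertain.

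Xist status moved with both genes in some groups. In WT control livers the single Xist-high array, replicate 1, gave the lowest value of both (38.9 for Hspa1a and 1048 for Hspa1b), and in lsPERK tunicamycin livers both Xist-high arrays, replicates 1 and 2, gave the lowest values. Without that WT control array the WT change was -2.93 for Hspa1b and -2.27 for Hspa1a, which was then called (adjusted p = 0.0162). Without lsPERK tunicamycin replicate 2, the lowest of its group, the WT change of Hspa1a was called as well (-1.47, adjusted p = 0.0463). On Xist-low arrays alone the WT change was -2.99 for Hspa1b (adjusted p = 1.11e-05) and -2.35 for Hspa1a (adjusted p = 0.000547). Xist-high arrays alone left 1 WT control and 1 WT tunicamycin array, so sizes alone are given for them. The WT change there was -1.43 for Hspa1b and turned to 0.44 for Hspa1a. Over the 29 alternative settings the WT change ran from -2.99 to -1.43 for Hspa1b and from -2.35 to 0.44 for Hspa1a. On Xist-high arrays alone the difference of responses was 3.12 for Hspa1b and 1.69 for Hspa1a. Under tunicamycin the lsPERK minus WT difference of Hspa1a was then 1.77. The part of Xist status in these levels was not tested.

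Hspa4l and Hsph1 belong to the HSP110 branch, which exchanges nucleotide on HSP70. Hspa4l read 296, 358 and 276 in WT control livers, 161, 195, 195 and 176 in WT tunicamycin livers, 409, 286 and 423 in lsPERK control livers, and 831, 859, 776 and 869 in lsPERK tunicamycin livers. Here too WT livers fell below their controls and lsPERK livers rose above theirs, without overlap. The change was -0.77 in WT liver (SE 0.15, adjusted p = 0.000695) and 1.18 in lsPERK liver (SE 0.15, adjusted p = 0.000102), a difference of 1.95 (95% confidence interval 1.50 to 2.39, adjusted p = 5.55e-05). Of all genes, 44 (0.364%) were called lower in the WT response and higher in the lsPERK response, and Hspa1b and Hspa4l were among them. The WT fall of Hspa4l was lost without normalization between arrays (-0.27, adjusted p = 0.352). Over the alternatives the adjusted p of this fall ran from 0.000173 to 0.352. On Xist-high arrays alone, with 1 WT array per treatment, the WT change was -0.59.

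Hsph1 read 925, 1122 and 1009 in WT control livers, 907, 1480, 881 and 1098 in WT tunicamycin livers, 1255, 1290 and 1321 in lsPERK control livers, and 3043, 2745, 2338 and 2622 in lsPERK tunicamycin livers. The WT groups overlapped, whereas every treated lsPERK liver exceeded every other liver. The lsPERK rise was 1.05 (SE 0.16, adjusted p = 0.000457), against 0.07 in WT liver (SE 0.16, adjusted p = 0.738), and the responses differed by 0.98 (95% confidence interval 0.50 to 1.46, adjusted p = 0.00742). Hsph1 was also the 1 gene of the 9 whose control groups did not overlap, higher in lsPERK by 0.34, though that difference was not called (adjusted p = 0.992). Control groups lay apart in this direction in 2.8% of all genes and in the other direction in 4.59%.

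Hspa8, the constitutive HSP70 (HSC70) that also uncoats clathrin vesicles, read 8718, 11660 and 10089 in WT control livers and 10740, 11365, 10016 and 9374 in WT tunicamycin livers. In lsPERK livers it read 12037, 12298 and 10651 in controls and 18401, 16408, 17644 and 17694 after tunicamycin. WT treated and control livers shared the same range, and all treated lsPERK livers lay above it. The rise was 1.51-fold in lsPERK liver (log2 0.59, SE 0.09, adjusted p = 0.000781) against 0.04 on the log2 scale in WT liver (95% confidence interval -0.17 to 0.24). The difference of responses was 0.55 (SE 0.13, adjusted p = 0.0106).

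Dnaja1, a farnesylated partner of HSC70, read 7095, 8069 and 7698 in WT control livers, 7292, 7810, 7660 and 7852 in WT tunicamycin livers, 8870, 7352 and 8177 in lsPERK control livers, and 13238, 12949, 12236 and 12348 in lsPERK tunicamycin livers. The 10 livers outside the last group shared a narrow range below it. Its change was 0.65 in lsPERK liver (SE 0.07, adjusted p = 3.29e-05) and 0.01 in WT liver (95% confidence interval -0.14 to 0.16), and the difference was 0.64 (SE 0.10, adjusted p = 0.000778).

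Dnajb4 read 1705, 2005 and 2295 in WT control livers, 1466, 1788, 1612 and 1683 in WT tunicamycin livers, 2059, 1999 and 2395 in lsPERK control livers, and 4517, 4268, 4165 and 4945 in lsPERK tunicamycin livers. The treated lsPERK livers formed a tight group above all others. The rise was 1.06 in lsPERK liver (SE 0.11, adjusted p = 2.69e-05), and the WT change of -0.28 (SE 0.11, adjusted p = 0.053) missed the threshold and became 0.21 without normalization between arrays. It passed when WT control replicate 1 (adjusted p = 0.0146), WT tunicamycin replicate 2 (0.0379) or lsPERK control replicate 3 (0.0462) was left out, and in 9 of 29 alternative settings in all. The responses differed by 1.34 (SE 0.16, adjusted p = 0.000116).

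Dnajb1 (HSP40), the J-domain protein most closely tied to HSF1 feedback, varied more. It read 1065, 864 and 920 in WT control livers, 619, 885, 752 and 766 in WT tunicamycin livers, 1301, 1221 and 722 in lsPERK control livers, and 2577, 2079, 1434 and 1728 in lsPERK tunicamycin livers. Control replicate 3 of lsPERK lay below all WT controls, and the lsPERK groups still did not overlap. The lsPERK rise was 0.87 (SE 0.22, adjusted p = 0.0157) and the difference of responses 1.20 (SE 0.31, adjusted p = 0.0149). Without lsPERK control replicate 3 the rise was 0.60 and no longer called (adjusted p = 0.0672). Its adjusted p ran from 0.000219 to 0.0955 over the alternatives. The WT change was -0.34 (95% confidence interval -0.81 to 0.13) and became 0.24 without normalization between arrays.

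Bag3, a co-chaperone that binds HSP70 through its BAG domain and directs clients to selective autophagy, had another pattern. It read 654, 890 and 574 in WT control livers, 2625, 3259, 1837 and 1846 in WT tunicamycin livers, 819, 735 and 653 in lsPERK control livers, and 1624, 1406, 1716 and 1372 in lsPERK tunicamycin livers. Treated livers exceeded controls in both genotypes, and the WT treated livers were the highest. The rise was 3.34-fold in WT liver (log2 1.74, SE 0.20, adjusted p = 9.5e-06) and 2.08-fold in lsPERK liver (log2 1.06, SE 0.20, adjusted p = 0.00278). The difference of responses, -0.69 (95% confidence interval -1.30 to -0.08, adjusted p = 0.112), was not called. Under tunicamycin Bag3 was 1.52-fold lower in lsPERK than in WT liver (log2 -0.61, SE 0.19, adjusted p = 0.0203), a call that was kept in 23 of 29 alternative settings. It was lost on Xist-low arrays alone (-0.44, adjusted p = 0.181) and without normalization between arrays (-0.78, adjusted p = 0.052). It was also lost without WT tunicamycin replicate 1 (adjusted p = 0.0582) or 2 (0.0577) and without lsPERK tunicamycin replicate 2 (0.0528) or 4 (0.0561). The difference of responses was called without WT control replicate 2 (-0.86, adjusted p = 0.0496) and on Xist-high arrays alone (-1.35, adjusted p = 0.0394), and on Xist-low arrays alone it was -0.31 (adjusted p = 0.653). The part of Xist status in the Bag3 difference was not tested.

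**Figure D2:**
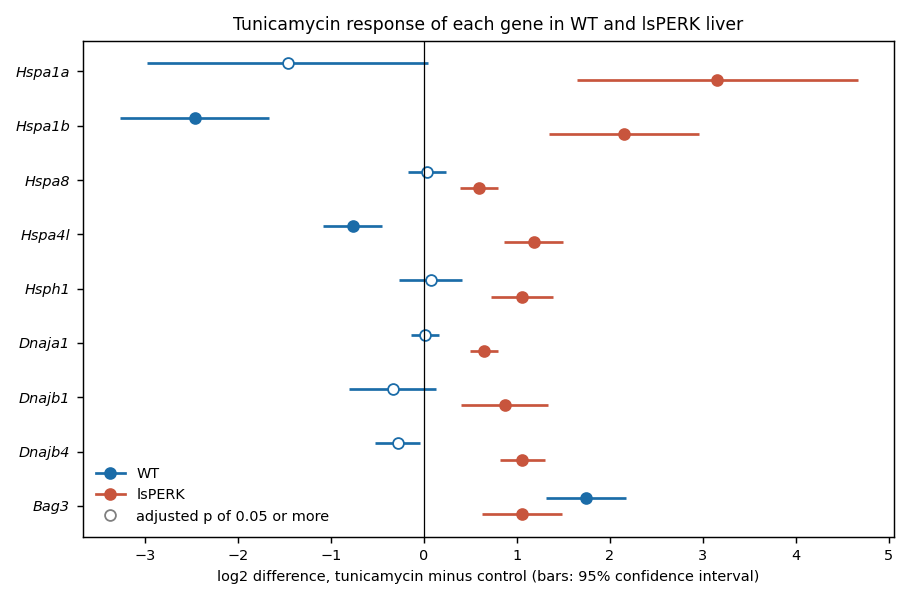
Log2 difference between tunicamycin and control (horizontal axis) with its 95% confidence interval for the 9 genes (vertical axis), in WT and in lsPERK liver, with open points where the adjusted p was 0.05 or more. All 9 lsPERK points are filled and right of 0; in WT liver Hspa1b and Hspa4l are filled left of 0, Bag3 is filled right of 0 and the other 6 are open.

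In unstressed liver none of the 9 genes was called between the genotypes, as was the case for 0 of 12085 genes (0%). At an unadjusted p under 0.05, 512 genes and 0 of the 9 passed in the limma fit. The widest interval was that of Hspa1a, -1.42 with a 95% confidence interval of -3.03 to 0.19, and the narrowest that of Dnaja1, 0.09 with -0.07 to 0.25. Eif2ak3 itself was not called in this comparison, so a missing call between controls does not show equal levels. The difference of responses, which compares the genotype differences after tunicamycin and in controls directly, was called for 8 of the 9.

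The other probe sets of the genes gave much the same picture, with most exceptions in the difference of responses. Of the 24 probe sets, 22 were called higher in the lsPERK response, 18 higher in the difference of responses and 22 higher in lsPERK under tunicamycin. Over the 21808 probe sets of single genes, 13.9%, 16.3% and 31.4% were called in either direction in these comparisons. In the WT response 1 of the 24 was called higher and 7 lower, while 43% of the 21808 were called in either direction. All 3 probe sets of Hspa1b fell in WT liver and rose in lsPERK liver. Of the 5 for Hspa4l, 4 were called lower in WT liver and all 5 higher in lsPERK liver. One probe set of Hspa8 was not called in the lsPERK response (adjusted p = 0.853). Its control means were 303 in lsPERK and 114 in WT liver, without overlap (log2 1.40, adjusted p = 0.358). Its difference of responses was -0.14, although it is among the 22 called higher in lsPERK under tunicamycin. A probe set of Dnajb4 exceeded the filter threshold on 5 arrays and was not called in the lsPERK response either (adjusted p = 0.129). With the mean of all its probe sets the difference of responses of Hspa8 was 0.39 and not called (adjusted p = 0.146), and with the second brightest probe set that of Hsph1 was 0.72 and not called (adjusted p = 0.0795).

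**Figure D3:**
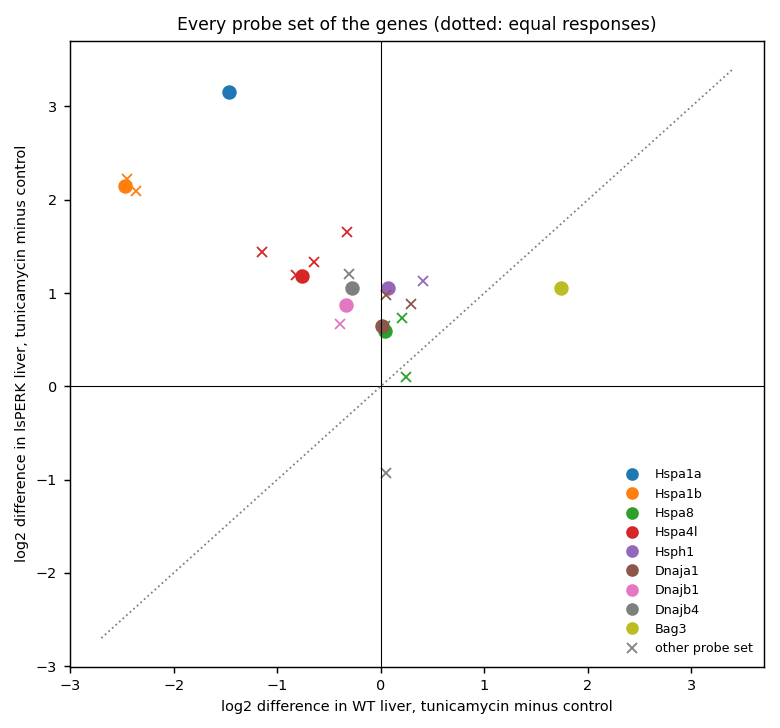
Tunicamycin response of each of the 24 probe sets in WT liver (horizontal axis, log2 difference) against lsPERK liver (vertical axis, log2 difference), coloured by gene, with crosses for probe sets other than the brightest and a dotted line of equal responses. The Hspa1b and Hspa4l probe sets lie left of 0 in WT liver and above 0 in lsPERK liver, and Bag3 lies below the dotted line with both responses above 0.

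The other genes of the pathway moved in both directions. They were grouped in 6 lists, of which 61 genes were tested. In the WT response 20 of the 61 were called higher and 14 lower, beside 20.7% and 26% of all genes. In the lsPERK response 8 were higher and 3 lower, beside 8.42% and 7.27%. The difference of responses was higher for 13 and lower for 9, beside 10.2% and 9.67%. Between genotypes under tunicamycin 20 were higher and 16 lower, beside 18.5% and 16.8%. These shares of all genes also stand beside the counts of each list below. These splits depended on the scaling. In the WT response the split was 26 and 4 without normalization between arrays and 22 and 8 with median centring. All 20 WT rises were kept under both, whereas the falls kept without normalization were those of Dedd2, Fkbp4, Hdac6 and Hsf2, joined with centring by Akt1, Bag1, Dnajc13 and St13. In the lsPERK response the split was 5 and 0 without normalization and 10 and 0 with centring. The 3 lsPERK falls, of Akt1, Dnajc8 and Hdac6, were lost under both, and the rises of Dnajc5, Stip1 and Hsp90aa1 were lost without normalization. In the difference of responses the split was 1 and 15 without normalization, where Fkbp4 alone was called higher, and 5 and 7 with centring, where Dedd2, Fkbp4, Hsf2, Hsp90aa1 and Hspb1 were. Of its 9 lower calls all were kept without normalization, and those of Dnaja2 and Hspa9 were lost with centring. Between genotypes under tunicamycin the split was 7 and 15 without normalization and 13 and 15 with centring. Among the other cytosolic HSP70 and HSP110 genes, 0 of 4 were called in the lsPERK response, in which 15.7% of all genes were. Hspa4, an HSP110 like Hspa4l, rose in WT liver by 0.85 (SE 0.15, adjusted p = 0.000343), and its difference of responses of -0.45 was not called (adjusted p = 0.158). Under tunicamycin Hspa4 was called lower in lsPERK than in WT liver (-0.59, adjusted p = 0.00409), opposite to Hspa4l. In that comparison 0 of the 4 genes were called higher. Hspa2, Hspa14 and Hspa12a were called in neither response. The list median of the lsPERK response was 0.23 against -0.02 over all genes.

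Of 13 other cytosolic J-domain genes, 5 were called higher and 2 lower in WT liver, and 1 higher and 1 lower in lsPERK liver. Between genotypes under tunicamycin 1 was called higher in lsPERK liver, Dnajc13 (0.56), and 4 lower. These 4 were Dnaja2 (-0.41), Dnajb5 (-1.10), Dnajc2 (-0.44) and Dnajc21 (-0.69). Dnaja2, a close relative of Dnaja1, rose in WT liver by 0.58 (adjusted p = 2e-05) and responded less in lsPERK liver (difference -0.51, adjusted p = 0.00407). Dnajb5 and Dnajc21 rose in WT liver by 1.03 and 0.95, and the endosomal J-domain gene Dnajc13 fell by 0.70 with a difference of responses of 0.62 (adjusted p = 0.00912). In lsPERK liver the synaptic vesicle chaperone Dnajc5 rose by 0.45 and the splicing-associated Dnajc8 fell by 0.50, calls kept in 17 and 24 of 29 alternative settings. The list median of the lsPERK response was 0.03.

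Of 13 other co-chaperones and exchange factors, 3 were called higher and 4 lower in WT liver, and 1 of 13 rose in lsPERK liver. Without normalization between arrays all 4 falls lost their call, with changes of -0.10 for Bag1 (adjusted p = 0.701), -0.32 for St13 (0.144), 0.082 for Cdc37 (0.742) and 0.095 for Tomm34 (0.751). The gene that rose in lsPERK liver was Stip1 (HOP), which links HSP70 to HSP90, with a rise of 0.49 (adjusted p = 0.0232), kept in 19 of 29 alternative settings. The exchange factors Bag2 and Bag5 rose in WT liver by 1.08 and 0.85, while Bag1 and St13 (HIP), which stabilises HSP70 bound to ADP, fell by 0.61 and 0.74. In the difference of responses Bag1 and St13 were higher in lsPERK (0.65 and 0.65), as was the HSP90 partner Cdc37 (0.35, and -0.14 without normalization), and Bag2 and Bag5 were lower (-1.03 and -0.67). The Bag2 call was kept in 26 of 28 alternative settings, that of Bag5 in 11 and that of Cdc37 in 9, and Bag5 and Cdc37 changed sign in 1 each. Hip1r, also in the list and lower in the difference of responses (-0.95), is an endocytic adaptor and no known HSP70 partner. Between genotypes under tunicamycin 5 genes of the list were called higher in lsPERK liver and 4 lower.

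Among 11 genes of the HSF family and HSF1 regulators, 3 were called higher and 4 lower in WT liver, and 0 higher and 2 lower in lsPERK liver. Between genotypes under tunicamycin 4 were called higher and 2 lower in lsPERK liver. Hsf2, a second heat shock factor that can pair with HSF1, fell in WT liver by 1.28 on the log2 scale (adjusted p = 0.000667), with a group mean of 71.8 in controls and 29.5 after tunicamycin, the latter under the filter threshold. In lsPERK liver its means were 64.9 and 62.7, and the difference of responses was 1.23 (adjusted p = 0.0229). Hsbp1, a small protein that binds the trimerisation domain of HSF1, fell in WT liver by 0.34 (a change of 0.10 without normalization between arrays) with a difference of responses of 0.50 (adjusted p = 0.0186). The deacetylase gene Sirt1 rose in WT liver by 0.91 and its difference of responses was -1.18 (adjusted p = 0.00176). Hdac6, a deacetylase that frees HSF1 on proteotoxic stress, fell in WT liver by 1.29, a call kept in all 29 alternative settings, with a difference of responses of 0.83 (adjusted p = 0.00912). Its lsPERK fall of 0.47 was kept in 16 of 29 and lost without normalization (adjusted p = 0.252) and with centring (0.151). Akt1 fell by 0.85 in WT liver, lost without normalization (adjusted p = 0.466), and by 0.56 in lsPERK liver, kept in 18 of 29 and lost without normalization (0.312) and with centring (0.117). Vcp rose in WT liver by 0.55.

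Of 16 measured genes known to be raised by HSF1 outside the HSP70 system, 4 were called higher and 4 lower in WT liver, and 3 higher and 0 lower in lsPERK liver. The difference of responses was higher for 6 and lower for 3. Between genotypes under tunicamycin 10 of the 16 were called higher and 3 lower, beside 18.5% and 16.8% of all genes. Without normalization between arrays Hsp90aa1, Hspb1, Ahsa1, Fkbp4 and Dedd2 kept the higher call, and Hspb8, Ier5 and Jun the lower one. Hsp90aa1, the inducible HSP90, had group means of 4795 and 4649 in WT control and tunicamycin livers and 6540 and 9883 in the lsPERK ones. Its lsPERK rise was 0.60 (adjusted p = 0.0048) and its difference of responses 0.64 (adjusted p = 0.0198). Chordc1, an HSP90 partner, rose in lsPERK liver by 0.97 and in WT liver by 0.50. Fkbp4, another, fell in WT liver by 1.45, and its difference of responses was 1.51 (adjusted p = 0.000132).

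Hspb1 (HSP25) had a difference of responses of 2.38 (adjusted p = 0.0232), and its lsPERK rise of 1.39 was not called (adjusted p = 0.0634), as lsPERK controls ran from 264 to 1757. Ahsa1, which speeds the ATPase of HSP90, Mrpl18 and Dedd2 fell in WT liver by 0.30 (0.14 without normalization), 0.58 and 1.33 and had higher responses in lsPERK liver (differences 0.53, 0.64 and 1.02). The small heat shock gene Hspb8, a Bag3 partner, and Ier5 went the other way, rising in WT liver by 1.01 and 1.73 with differences of responses of -1.02 and -1.37. Jun, which many stress kinases raise, rose in both genotypes by 3.75 and 1.90, with a difference of -1.85 (adjusted p = 0.0264). The list median under tunicamycin, lsPERK minus WT, was 0.34 against 0.05 over all genes.

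HSP70 genes of other compartments rose in WT liver in 4 of 4 cases and in lsPERK liver in 3 of 4. Between genotypes under tunicamycin 0 of the 4 were called higher and 2 lower in lsPERK liver. The ER genes Hspa13 and Hyou1 rose by 2.19 and 2.23 in WT liver and by 2.14 and 1.63 in lsPERK liver, beside Hspa5 above. The limma fit called 0 of these 3 in the difference of responses. The mitochondrial HSP70 gene Hspa9 rose by 0.80 in WT liver, did not pass the threshold in lsPERK liver (0.04, adjusted p = 0.853) and had a difference of responses of -0.76 (adjusted p = 0.00288).

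**Figure D4:**
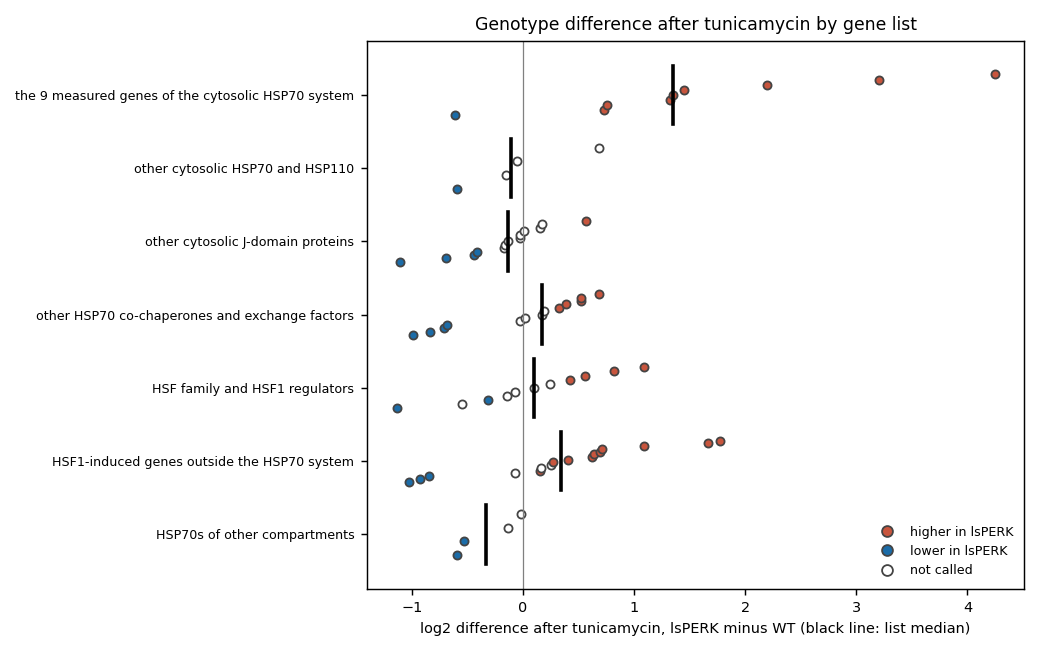
Log2 difference after tunicamycin, lsPERK minus WT (horizontal axis), of each tested gene in 7 sets (vertical axis): the 9 measured genes of the cytosolic HSP70 system and 6 lists of related genes, coloured by call, with the median of each set as a black line. The 9 genes reach from -0.61 to 4.24 around a median of 1.35, and the list medians lie between -0.33 and 0.34. Genes and lists were chosen with earlier results of these data known, so the gap between medians may partly reflect that choice.

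Across the 14 arrays, which share the treatment and genotype steps, the 8 genes other than Bag3 resembled one another in log2 level, with Pearson r from 0.55 to 0.96 over their 28 pairs. Bag3 correlated with the 8 at -0.31 to 0.23. These values describe likeness over groups and carry no test. Outside the set, the genes most like Hspa1b were Palld (r = 0.96), Spsb2 and Coa3. Those most like Hspa4l were 4833439L19Rik, Cldn14 and Coa3 (r = 0.97 to 0.98). Hspa8 was nearest to Ncbp2, Hsp90aa1 and Cstf2, Hsph1 to Ncbp2, Plekha8 and Zfp53, and Dnaja1 to Abhd5, Cstf2 and Mlec. Dnajb4 was nearest to Plekha8, Cldn14 and Megf9, Dnajb1 to Megf9, Mmp14 and Zfp53, and Hspa1a to Dennd4c, Slc35a3 and Dcakd (r = 0.89 to 0.90). Bag3 was nearest to Selenok, Kbtbd8 and Srp14 (r = 0.98).

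Markers of other liver cells were read beside these results. In the lsPERK response, in which 15.7% of all genes were called, 1 marker gene, the cholangiocyte marker Sox9, was called. Of the others, 0 of 8 Kupffer cell, 0 of 7 sinusoidal endothelial and 0 of 6 stellate cell markers were. In the WT response 46.7% of all genes were called. There the Kupffer marker Cd5l, the endothelial markers Stab2 and Kdr and the stellate markers Col3a1 and Reln were called lower. Among hepatocyte markers Apob was lower (-0.19) and Tat higher (0.88). In the difference of responses Reln was called higher (0.68, adjusted p = 0.0226) and Tat lower (-0.83, adjusted p = 0.0245). Under tunicamycin Reln (0.57), Apob (0.14) and Cyp2e1 (0.16) were called higher in lsPERK than in WT liver and Tat lower (-0.50). Over all genes 19.9% were called in the difference of responses and 35.3% between genotypes under tunicamycin. The summed level of the 8 Kupffer markers ran from 7522 to 20362 in WT controls, 4369 to 12961 in WT tunicamycin livers, 6768 to 19117 in lsPERK controls and 6939 to 10643 in lsPERK tunicamycin livers. That of the 7 endothelial markers ran from 5511 to 8802, 4818 to 7620, 6987 to 8983 and 5469 to 7617 in the same order. The ratio of 3′ to 5′ actin control signal, a sign of RNA quality, was 1.09 ± 0.15 (SD, n = 3), 0.84 ± 0.25 (n = 4), 0.87 ± 0.25 (n = 3) and 0.68 ± 0.10 (n = 4) on the log2 scale in that order. With this ratio as a covariate, 9 of the 9 genes were called in the lsPERK response. The part of other cell types in these results was not tested.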

How the data were processed

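RNA of 14 liver samples was hybridised to Affymetrix arrays from 100 ng of total RNA by the 3′ in vitro transcription protocol, per the labels. The authors deposited 1 linear intensity per probe set and array, made with GCOS and MAS5 per the submitters' processing notes. The sources used here give no version or scaling target, and no detection calls were used. Array medians differed by up to 0.63 on the log2 scale, so log2 intensities of all probe sets except 64 controls were quantile normalized, and printed intensities and group means are the antilog of normalized log2 values. Arrays have no read depth; their number limits the precision.

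Probe sets were named from the platform annotation (34945 with 1 gene, 932 with several, 9160 with none) and kept if 3 or more arrays lay above the median of all values (41.5, or 5.37 on the log2 scale). Each of 12085 genes was read from its brightest kept probe set. In R 4.3.3, limma 3.58.1 (lmFit, then eBayes with trend) estimated 4 group means with 10 residual degrees of freedom, and 5 two-sided contrasts were tested with Benjamini-Hochberg adjustment over all genes. Calls were made below an adjusted p of 0.05, and every adjusted p printed is limma's. "Difference of responses" is lsPERK minus WT. Tested on simulated data for 12085 genes with 200 changed, a log2 change of 1 was recovered in 58% of genes for the WT response, 60% for the lsPERK response and 34.5% for the difference. Far fewer genes changed there than were called in these 3 comparisons. As the adjustment depends on that share, the rates do not give the recovery in the real data.

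The 10 genes, the lists of related genes and the markers were chosen with earlier results of these data known. Named beyond the 10 genes are Eif2ak3, Ddit3 and Hspa5, up to 4 genes per list in order of p in each response and in their difference, list genes called in that difference, and the 3 genes most like each gene by Pearson r. The labels state no pairing of arrays. Same-numbered lsPERK control and tunicamycin arrays deviated together in all 3 pairs (r of deviations from group means 0.24 to 0.35). In the WT response r ran from -0.37 to 0.16, with 1 of 3 pairs over 0.1. Between genotypes it ran from -0.20 to 0.32 in controls (2 of 3 over 0.1). Under tunicamycin it ran from -0.14 to 0.42 (3 of 4). In each of these comparisons the pairs over 0.1 were the ones with matching Xist status. Pairing and shared Xist status cannot be told apart in the 3 lsPERK pairs. As the labels state no pairing, the numbers were not taken to pair arrays, and the main fit held no replicate block. The part of Xist status was not tested. Alternatives covered normalization, a pseudocount of 16, filters, variance models, other probe sets, Xist status, actin ratio, the replicate block, each comparison on its own arrays, and each array left out. Xist-high arrays alone were added with the data known and left 1 WT control and 1 WT tunicamycin array. Xist-low arrays alone left 1 lsPERK control array. In these fits such groups gave no spread of their own, which limits every count over the alternatives that includes them. Promoters were searched in Python 3.11.15, and matplotlib 3.10.9 was used for plots.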

Additional observations from a re-analysis of the deposited data

Results flagged for a closer look

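The tunicamycin response differed between lsPERK and WT liver, by the fitted difference of responses, in 8 of the 9 measured genes. On the log2 scale the difference was 4.62 for Hspa1b, 1.95 for Hspa4l, 1.34 for Dnajb4, 1.20 for Dnajb1, 0.98 for Hsph1, 0.64 for Dnaja1 and 0.55 for Hspa8, with the adjusted p-values given above. For Hspa1a it was 4.62, a value of uncertain size because its WT tunicamycin and lsPERK control arrays lay near the filter threshold.

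One array stood apart from its group. Hspa1b in WT tunicamycin replicate 1 read 306, while the other 3 arrays read 378 to 389, so the gap was 0.889 of the whole range and exceeded Dixon's critical value. Of the 18 groups of 4 arrays examined, 1 was set apart in this way, and chance does so in about 1 group in 20.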

How the results depend on the processing

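Over 29 alternatives (28 for the difference of responses), 8 or 9 of the 9 genes were called higher in the lsPERK response in every one, and 8 or 9 differed between genotypes under tunicamycin. In WT liver 5 genes were called, in place of 3, with Xist status as a covariate, on Xist-low arrays alone and without WT control replicate 1 (Hspa1a and Dnajb4 joined, both lower), and the count ran from 3 to 5 with each array left out. Xist-high arrays alone left 1 WT array per treatment, so sizes alone are given. The WT change there was 2.31 for Bag3, 0.37 for Hspa8 and 0.67 for Hsph1, and -1.43 for Hspa1b and -0.59 for Hspa4l. The difference of responses there was 3.12 for Hspa1b, 1.87 for Hspa4l, 1.04 for Dnajb4 and -1.35 for Bag3. In the difference of responses 4 genes were called without normalization, all higher, beside 129 of 12169 genes tested. With the replicate number as a block, which changed no call of the 9 genes in the lsPERK response (1666 of all genes called), the calls were 4 for the WT response, 9 for that of lsPERK, 8 for their difference, 0 between controls and 9 under tunicamycin; the added gene was Dnajb4 (-0.32, adjusted p = 0.0403). Of 1296 single-gene values, 1224 kept direction and call, 23 lost a call, 17 gained one and 32, none of them called in either setting, changed sign. In the WT response these were, without normalization, Dnajb1 0.24 and Dnajb4 0.21; with median centring, Hspa8 -0.11 and Dnaja1 -0.056; with array weights, Hspa8 -0.012, Hsph1 -0.022 and Dnaja1 -0.0076; on Xist-low arrays, Hspa8 -0.12, Hsph1 -0.16 and Dnaja1 -0.051; on Xist-high arrays, Hspa1a 0.44 and Dnajb4 0.067; with the actin ratio, Hsph1 -0.032 and Dnaja1 -0.082. With an array left out Hspa8 ran from -0.068 to 0.14, Hsph1 from -0.086 to 0.16 and Dnaja1 from -0.042 to 0.050. Between controls they were Dnaja1 -0.040 with centring, Dnajb1 -0.017 with Xist status, -0.31 on Xist-low arrays and -0.024 with the actin ratio, Hspa8 -0.028 and Bag3 -0.13 on Xist-low arrays, and Hspa1a 0.076 and Hspa1b 0.50 on Xist-high arrays. With an array left out Dnajb4 ran from -0.00096 to 0.21, Bag3 from -0.058 to 0.26 and Dnajb1 from -0.011 to 0.41. The cause was not tested in any of these cases. Counts over all genes ran from 3075 to 6223 (WT response), from 695 to 2382 (lsPERK response), from 689 to 2911 (difference), from 0 to 19 between controls and from 2077 to 4878 under tunicamycin; without lsPERK control replicate 2, 1124 genes were called in the lsPERK response against 1897. With 3 or 4 arrays a group, small log2 differences are often missed, and signals near the filter threshold, as for Hspa1a, carry little order.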
